A study of Mus musculus with 6 samples.

Results

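A set of 10 genes of the RNA-sensing arm of the interferon response were followed in liver group 1 innate lymphoid cells (ILC1): the RNA helicase genes Dhx58, Ddx58 and Ifih1, the nucleic acid sensor gene Zbp1, the kinase gene Eif2ak2, and Oas1a, Oas2, Oas3, Oasl1 and Oasl2 of the oligoadenylate synthetase family. They were taken by symbol from the deposited count table, where all 10 were found among 24091 genes. ILC1 are tissue-resident lymphocytes of the liver that make interferon gamma. The AML group was C57BL/6 mice given C1498 cells, an acute myeloid leukaemia line of the same strain, into a vein, and the healthy group was C57BL/6 mice without C1498 cells. ILC1 were taken from the livers at day 14, and mRNA was sequenced in 3 libraries per group, called AML 1 to 3 and healthy 1 to 3. The labels do not say how ILC1 were gated, or whether a library holds cells of 1 mouse or of several, and they name no further allele or treatment. The p-values therefore cover only the spread among the 6 libraries, part of which may be technical. Depth was similar, with 45135093 to 51284691 reads counted per library.

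RIG-I-like receptors are cytosolic helicases that bind viral or misplaced cellular RNA. RIG-I (Ddx58) and MDA5 (Ifih1) carry signalling domains that engage the adaptor MAVS and lead to type I interferon, while LGP2 (Dhx58) lacks these domains and modulates the others. PKR (Eif2ak2) halts translation by phosphorylating eIF2 alpha when it meets double-stranded RNA, ZBP1 binds Z-form nucleic acids and can engage the kinase RIPK3, and the synthetases make 2′-5′ linked oligoadenylates, small messengers of the antiviral response. These genes are known targets of interferon itself, which reaches them through the factor ISGF3 and the interferon-stimulated response element.

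Levels are given in CPM, the reads of a gene per 1000000 reads counted, after TMM scaling of the library totals. In the AML libraries each of the 10 genes had a positive fitted fold change, and in 9 of them the lowest AML library lay above the highest healthy one. The exception was Oas1a. Of all 12469 genes tested, 8.2% were separated in this direction, and 52% had a positive fold change. No member passed an adjusted p of 0.05 in the quasi-likelihood test of edgeR (Benjamini-Hochberg over all genes tested), where 0% of all genes passed. At an unadjusted p below 0.05 there were 8 members, all higher in AML, against 5.08% of all genes. Since the genes were chosen with earlier results of these data known, these counts describe them and do not test them as a group. All 10 passed the filter on low counts, Oas2 only through its AML libraries.

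The response element is shown first, since the genes are known targets of the factor that binds it. Promoter windows from RefSeq (GRCm38.p6), each 300 bases long with 250 bases before the gene start and 50 from the start on, matched 7 of the 10 genes. As the core of the element, GAAA followed by any 2 bases and again GAAA was searched on both strands. It occurred in 5 of these 7 windows and in 3.44% of all 32851 windows. The 60 bases around each match are given 5′ to 3′ on the gene's strand, with the match in capitals.
Ddx58: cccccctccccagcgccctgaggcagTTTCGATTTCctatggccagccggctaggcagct
Ifih1: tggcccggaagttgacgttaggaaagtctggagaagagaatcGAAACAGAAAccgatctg
Eif2ak2: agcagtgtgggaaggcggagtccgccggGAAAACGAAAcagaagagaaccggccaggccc
Oas1a: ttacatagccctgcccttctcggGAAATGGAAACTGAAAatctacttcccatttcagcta
Oas3: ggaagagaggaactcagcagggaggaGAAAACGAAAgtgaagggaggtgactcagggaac
These stretches lie on the minus strand at chr4:40239790-40239849 (Ddx58), chr2:62646206-62646265 (Ifih1), chr17:78882523-78882582 (Eif2ak2), chr5:120907509-120907568 (Oas1a) and chr5:120777701-120777760 (Oas3). In Ddx58 the match lies on the strand opposite to the gene. In Oas1a 2 overlapping matches cover bases -20 to -5 counted from the start. The matches of Eif2ak2 and Oas3 are the same 10 letters, GAAAACGAAA, at bases 19 to 28 after the start and at bases -75 to -66 before it. The windows of Oasl1 and Oasl2 held no match, and the whole window of Oasl2 (plus strand, chr5:114896684-114896983) is shown because Oasl2 had the largest fold change of the members with reads in every library.
Oasl2: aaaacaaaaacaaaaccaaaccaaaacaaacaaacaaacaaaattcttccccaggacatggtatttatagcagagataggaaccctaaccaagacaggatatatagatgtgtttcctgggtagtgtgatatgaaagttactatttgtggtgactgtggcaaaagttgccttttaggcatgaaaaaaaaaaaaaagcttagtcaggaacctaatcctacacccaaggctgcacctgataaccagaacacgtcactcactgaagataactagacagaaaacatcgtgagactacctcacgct
A second set of letters, TTCNNNGAA, the core of the element that answers to interferon gamma, reads the same on both strands. It occurred in 2 of the 7 windows, those of Eif2ak2 and Oas1a, and in 8.3% of all windows. A match is a description of the letters and shows no binding. Whether either element plays a part in the fold changes was not tested.

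**Figure D1:**
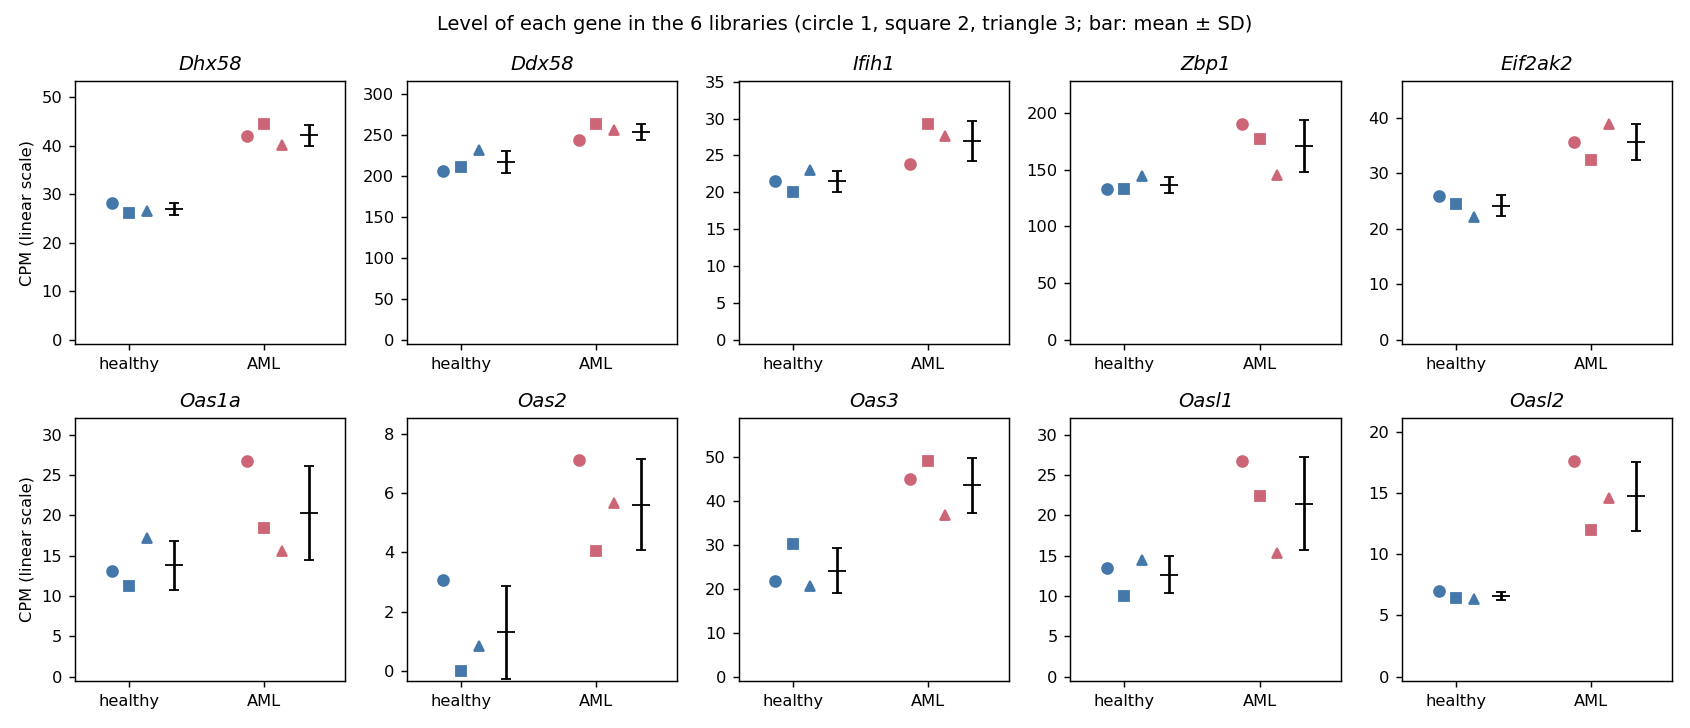
Level of each of the 10 genes in CPM (linear axes that differ between panels) in 3 healthy and 3 AML libraries, with the mean and SD of each group beside the points. Apart from Oas1a, the lowest AML library lies above the highest healthy library in every panel, and the SD bar of Oas2 in healthy libraries reaches below 0.

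Among the RIG-I-like receptor genes, Dhx58 differed most. Dhx58 (chromosome 11, 100694884 to 100704271) encodes LGP2 and measured 28.3, 26.1 and 26.6 CPM in healthy 1 to 3 and 41.9, 44.5 and 40.1 CPM in AML 1 to 3. The groups lay 11.8 CPM apart at their nearest libraries, and within each group the 3 libraries were close, with coefficients of variation of 4.31% and 5.15%. Its log2 fold change was 0.64 ± 0.09 (SE), or 1.56-fold, at an unadjusted p of 0.000106, which was rank 3 among all genes tested. The adjusted p was 0.323 in the quasi-likelihood test of edgeR.

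Ddx58, which encodes RIG-I, was the most abundant helicase of the 3 and the member with the smallest fold change. Ddx58 (chromosome 4, 40203777 to 40239825) measured 206, 211 and 231 CPM in healthy and 244, 263 and 255 CPM in AML libraries. The lowest AML library was AML 1 and the highest healthy library was healthy 3, and the groups did not overlap. Ddx58 had a log2 fold change of 0.23 ± 0.07, with an edgeR adjusted p of 0.479. Ifih1, the gene of MDA5 (chromosome 2, 62595793 to 62646255), measured 21.5, 20.1 and 23.0 CPM in healthy and 23.9, 29.2 and 27.7 CPM in AML libraries. AML 1 stood only 0.930 CPM above healthy 3, while AML 2 and AML 3 were well clear of the healthy range. Ifih1 had a log2 fold change of 0.32 ± 0.12, with an edgeR adjusted p of 0.497.

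The balance of the 3 helicase messages was read as ratios of their levels per kilobase within each library. The log2 ratio of Dhx58 to Ddx58 was -1.63, -1.79 and -1.89 in healthy and -1.31, -1.33 and -1.44 in AML libraries, a difference of 0.41. That of Dhx58 to Ifih1 was 1.94, 1.92 and 1.75 in healthy and 2.35, 2.14 and 2.08 in AML libraries, a difference of 0.32. For both ratios the groups did not overlap, and each gave the smallest p that an exact two-sided permutation test of 3 against 3 allows, 0.1, or 0.25 after Benjamini-Hochberg adjustment over 5 ratios computed. The ratio of Ddx58 to Ifih1 overlapped between groups, with a difference of -0.09 and an exact permutation p of 0.3, or 0.375 adjusted. With 3 libraries per group none of these ratios could pass a threshold of 0.05.

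Zbp1 was the most abundant member per kilobase of gene length and one of those with a small fold change. Zbp1 (chromosome 2, 173206612 to 173218922) measured 133, 133 and 144 CPM in healthy and 190, 177 and 146 CPM in AML libraries. AML 3 stood 1.37 CPM above healthy 3, so the separation of the groups rested on a narrow margin in that library. Zbp1 had a log2 fold change of 0.32 ± 0.11, with an edgeR adjusted p of 0.479.

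Eif2ak2, the gene of PKR (chromosome 17, 78852550 to 78882572), measured 26.0, 24.5 and 22.2 CPM in healthy and 35.7, 32.4 and 38.9 CPM in AML libraries. It was the only member with its highest level in AML 3, the library that was lowest in the AML group for 5 of the other members. The groups lay 6.43 CPM apart. The fitted log2 fold change was 0.56 ± 0.11, or 1.47-fold, at an unadjusted p of 0.00109 and an edgeR adjusted p of 0.399.

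Of the 5 genes of the synthetase family 4 had larger fold changes than any of the sensor genes, with a wider spread among AML libraries. For Oasl1 this order depended on the libraries. It had 0.57 against 0.65 for Dhx58 without AML 1, and 0.62 against 0.68 without healthy 1 and AML 1. Oas3, the gene of the largest synthetase (chromosome 5, 120753098 to 120777659), measured 21.7, 30.1 and 20.6 CPM in healthy and 44.9, 49.1 and 36.7 CPM in AML libraries. Healthy 2 was the highest healthy library for Oas3 and no other member. This gave a log2 fold change of 0.85 ± 0.17, or 1.81-fold, at an unadjusted p of 0.00134 and an edgeR adjusted p of 0.399.

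Oas2 (chromosome 5, 120730333 to 120749848), which encodes a synthetase of intermediate size, had few reads. Its counts were 151, 0 and 40 in healthy and 333, 212 and 269 in AML libraries, or 3.06, 0 and 0.831 CPM against 7.12, 4.06 and 5.66 CPM. The 0 reads in healthy 2 allow up to 3 reads, or 0.0603 CPM, by counting error alone. The healthy libraries differed among themselves far more than for any other member, and the log2 fold change of 2.11 ± 1.15 had an edgeR adjusted p of 0.610. It was 3.75 without healthy 1, 4.21 by limma-voom and 0.86 with Lyz2 as a covariate.

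Oas1a (chromosome 5, 120896257 to 120907525), an active synthetase, was the member whose groups overlapped. It measured 13.1, 11.2 and 17.2 CPM in healthy and 26.7, 18.5 and 15.6 CPM in AML libraries, so that AML 3 lay below healthy 3. Its log2 fold change was 0.55 ± 0.24, with an edgeR adjusted p of 0.565, and it was 0.30 without AML 1 and 0.26 without AML 1 and healthy 1. Part of its signal cannot be assigned. Of the 51-base windows of its GENCODE transcripts, the length of the sequenced reads, 57% also occur in another gene, and 1046 of 1835 windows are shared with its neighbour Oas1g. The counts of both genes together were 660, 561 and 830 in healthy and 1308, 993 and 776 in AML libraries, and these sums overlapped between groups in the same way. Oas1g gave only 0.482% to 4.64% of these sums, so they could hardly differ from Oas1a alone. For the other 9 members at most 2.86% of windows were shared.

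The Oas-like genes lie side by side on chromosome 5. Oasl2 (114896934 to 114912245), which in the mouse keeps synthetase activity, measured 6.99, 6.43 and 6.38 CPM in healthy and 17.6, 12.0 and 14.6 CPM in AML libraries. The healthy libraries were tight, with a coefficient of variation of 5.13% against 19.2% in AML, and the groups lay 4.97 CPM apart. Oasl2 had a log2 fold change of 1.16 ± 0.19, or 2.23-fold, at an unadjusted p of 0.000341 and an edgeR adjusted p of 0.323. Oasl1 (114923240 to 114937911), which lacks synthetase activity and is known as a brake on translation of Irf7 mRNA, measured 13.4, 10.1 and 14.5 CPM in healthy and 26.8, 22.4 and 15.3 CPM in AML libraries. AML 3 stood 0.767 CPM above healthy 3. Oasl1 had a log2 fold change of 0.76 ± 0.23, with an edgeR adjusted p of 0.467. The ratio of Oasl2 to Oasl1 per kilobase overlapped between groups, with an exact permutation p of 0.2, or 0.333 adjusted over the 5 ratios.

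**Figure D2:**
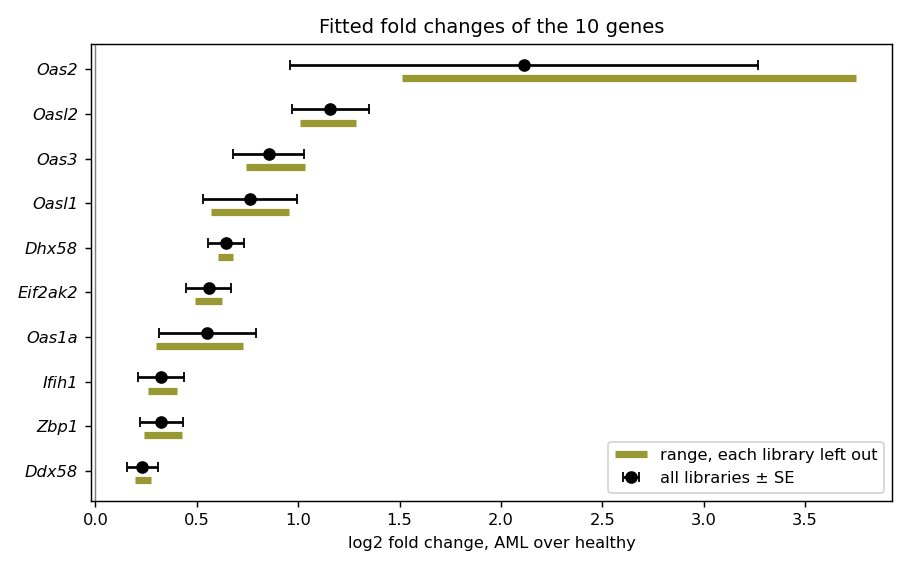
Fitted log2 fold change of each gene with all 6 libraries (points, bars are SE) and the range of the value when each library was left out in turn (bars below the points). All values are above 0, from 0.23 for Ddx58 to 2.11 for Oas2, and the range is widest for Oas2, from 1.51 to 3.75.

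Members passed in some other analyses. By DESeq2, where 0.803% of genes tested were called higher in AML, and by the likelihood ratio test of edgeR, where 0.61% were, the same 4 members were called: Dhx58, Oasl2, Oas3 and Eif2ak2. By limma-voom 0 members and 0% of all genes were called. At an unadjusted p below 0.05 limma-voom had 9 members and 1347 of all 12469 genes. Without AML 1, Dhx58 alone passed the quasi-likelihood test, at an adjusted p of 0.0409, where 0.188% of genes were called higher. Without healthy 1 and AML 1, Dhx58 passed at 0.0207 and Oasl2 at 0.0317, where 1.79% were. The authors' deposited table lists all 10 members with positive log2 fold changes. In the authors' deposited table Oas3, Dhx58 and Oasl2 have adjusted p-values of 0.00153, 0.00376 and 0.0374, Eif2ak2 has 0.0662, and 0.481% of its 9769 genes are below 0.05 and higher in AML.

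Levels per kilobase of gene length (RPKM) can be compared between genes. In healthy ILC1 Zbp1 stood highest at 63.4 ± 3.11 RPKM (SD, n = 3), followed by Ddx58 at 33.9 ± 2.10 and Dhx58 at 9.93 ± 0.428. Below them came Oas1a at 7.35, Eif2ak2 at 5.62, Oas3 at 4.80, Oasl1 at 3.52, Ifih1 at 2.72, Oasl2 at 2.11 and Oas2 at 0.292 RPKM. The libraries of neighbours overlapped for Oas1a and Eif2ak2, for Eif2ak2 and Oas3, and for Oasl1 and Ifih1, so their order is not resolved. The place of Oas1a is also uncertain because 57% of its 51-base windows occur in another gene. In AML libraries the order was the same at the top, with Zbp1 at 79.4 ± 10.6, Ddx58 at 39.8 ± 1.52 and Dhx58 at 15.5 ± 0.800 RPKM. Oasl2 stood above Ifih1, at 4.70 against 3.41 RPKM, with no overlap between their libraries, where in healthy libraries Ifih1 stood above Oasl2 without overlap. The message of RIG-I thus stood far above that of MDA5 in both groups.

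The 3 AML libraries did not rank alike for all members. AML 1 was highest of the AML libraries for Zbp1, Oas1a, Oas2, Oasl1 and Oasl2, AML 2 for the 3 helicase genes and Oas3, and AML 3 for Eif2ak2. Relative to the healthy mean, with 0.5 CPM added to both, the median member stood 0.75 log2 units higher in AML 1, 0.57 in AML 2 and 0.46 in AML 3, while the healthy libraries lay between -0.05 and 0.03. Summed over the 10 genes the level was 473, 472 and 507 CPM in healthy and 658, 652 and 595 CPM in AML libraries. Ddx58 and Zbp1 made up most of these sums.

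The Oas1, Oas2 and Oas3 genes form a cluster of 10 genes over 191.3 kb, and Oasl2 and Oasl1 lie 5.79 Mb away on the same chromosome. Of 7 cluster genes that are not members, Oas1e, Oas1f and Oas1h had 0 reads in every library and Oas1d had 8 reads in healthy 1 only. Oas1b measured 6.87, 9.61 and 9.84 CPM in healthy and 10.5, 14.7 and 22.9 CPM in AML libraries. The groups did not overlap, and the log2 fold change was 0.87 ± 0.30 with an edgeR adjusted p of 0.487. C57BL/6 mice are known to carry an Oas1b allele with a premature stop, so this message does not encode the full protein. Oas1c was lower in each AML library, with 491, 549 and 480 reads or 9.95 to 11.04 CPM in healthy and 376, 481 and 349 reads or 7.34 to 9.21 CPM in AML libraries. Its log2 fold change was -0.33 ± 0.17, with an edgeR adjusted p of 0.593. Oas1c, which lies between Oas3 and Oas1a, thus had the opposite sign to both, and 14.7% of its windows are shared with other genes. Oas1g had only 13, 4 and 4 reads in healthy and 57, 28 and 36 reads in AML libraries, and 45.2% of its windows are shared with other genes.

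**Figure D3:**
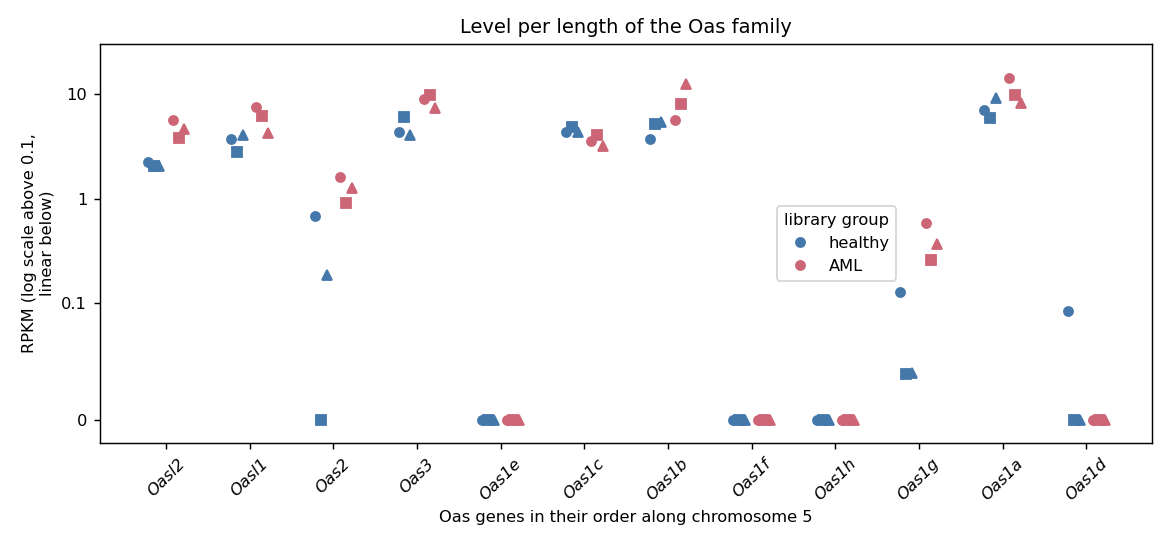
Level per kilobase (RPKM, logarithmic above 0.1 and linear below) of the 12 Oas genes in their order along chromosome 5, with 3 healthy and 3 AML libraries each. Oas1c is the only one of the genes with reads in every library whose AML libraries all lie below the healthy ones, and Oas1e, Oas1f and Oas1h are at 0 throughout.

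Mavs, the adaptor of RIG-I and MDA5, had a log2 fold change of 0.08 ± 0.07, at 63.7 ± 2.12 against 67.4 ± 2.51 CPM. Of 21 genes for cofactors and signalling partners of the RIG-I-like receptors, all tested, 0 passed the adjusted threshold in edgeR. At an unadjusted p below 0.05 there were 2 higher and 0 lower, and the median log2 fold change was 0.00, where that of all genes tested was 0.01. Of all 12469 genes tested, 1102 had an unadjusted p below 0.05 in edgeR, 634 of them higher in AML. The same background applies to the lists that follow. The 2 were Irf7, an interferon-induced transcription factor, with 0.49 ± 0.11 and an edgeR adjusted p of 0.399, and Rnf135, a ubiquitin ligase that acts on RIG-I, with 0.27 ± 0.10. Nlrx1, a mitochondrial protein described as a restraint on MAVS, had -0.26 ± 0.13.

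Among 12 other helicases proposed as RNA sensors or cofactors, 0 passed and the median log2 fold change was -0.04. Ddx60, itself an interferon-induced helicase, was the single one with an unadjusted p below 0.05, at 23.8, 26.7 and 29.9 CPM in healthy and 33.8, 40.5 and 39.5 CPM in AML libraries, with no overlap. Its log2 fold change was 0.50 ± 0.12, with an edgeR adjusted p of 0.399. Ddx3x had -0.37 ± 0.16 and Dhx33 -0.21 ± 0.12, with overlapping groups.

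The endosomal RNA receptors were scarce. Tlr3 was at 0.709, 0.442 and 0.0415 CPM in healthy and 0.107, 1.78 and 0.988 CPM in AML libraries, and Tlr7 at 3.77, 1.09 and 0.644 against 12.4, 2.26 and 1.72 CPM. Both overlapped between groups, and their levels differed several-fold between libraries of the same group. Of 9 tested genes of this list, 0 passed and 1, Tlr8, had an unadjusted p below 0.05, with a log2 fold change of 1.79 ± 0.68, while Unc93b1, which carries these receptors to endosomes, had 0.25 ± 0.11.

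Genes of DNA sensing and of nucleases that limit self nucleic acid included 10 tested genes with a median log2 fold change of 0.16. Of these 0 passed, and 4 were higher at an unadjusted p below 0.05. Of all genes tested, 5.08% were higher at this level, and 8.2% had every AML library above every healthy one. Aim2, a DNA sensor of the inflammasome, had 0.43 ± 0.11, Adar, which edits double-stranded RNA and so limits its sensing, 0.25 ± 0.07, Mb21d1 (cGAS) 0.33 ± 0.10 and Tmem173 (STING) 0.18 ± 0.07, each with groups that did not overlap. Trex1 was listed at 0 in every library.

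For the partners of ZBP1 in necroptosis 0 of 6 passed, with a median of 0.08. Ripk3 had a log2 fold change of -0.09 ± 0.10 and Mlkl of 0.28 ± 0.16, with overlapping groups. Cflar, which restrains caspase-8, had 0.25 ± 0.10, with an unadjusted p of 0.0439. A list of 17 PKR partners, other eIF2 alpha kinases and targets of the eIF2 alpha pathway had a median of -0.14, with 0 past the adjusted threshold and 2 lower at an unadjusted p below 0.05. Ppp1r15a, which recruits the phosphatase that reverses eIF2 alpha phosphorylation, had -0.26 ± 0.09, and Eif2b2, a subunit of the exchange factor of eIF2, -0.19 ± 0.07. Eif2b5 had -0.14 ± 0.08. The other eIF2 alpha kinases Eif2ak1, Eif2ak3 and Eif2ak4 had -0.10 ± 0.07, -0.16 ± 0.10 and 0.16 ± 0.24, against the 0.56 of Eif2ak2.

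**Figure D4:**
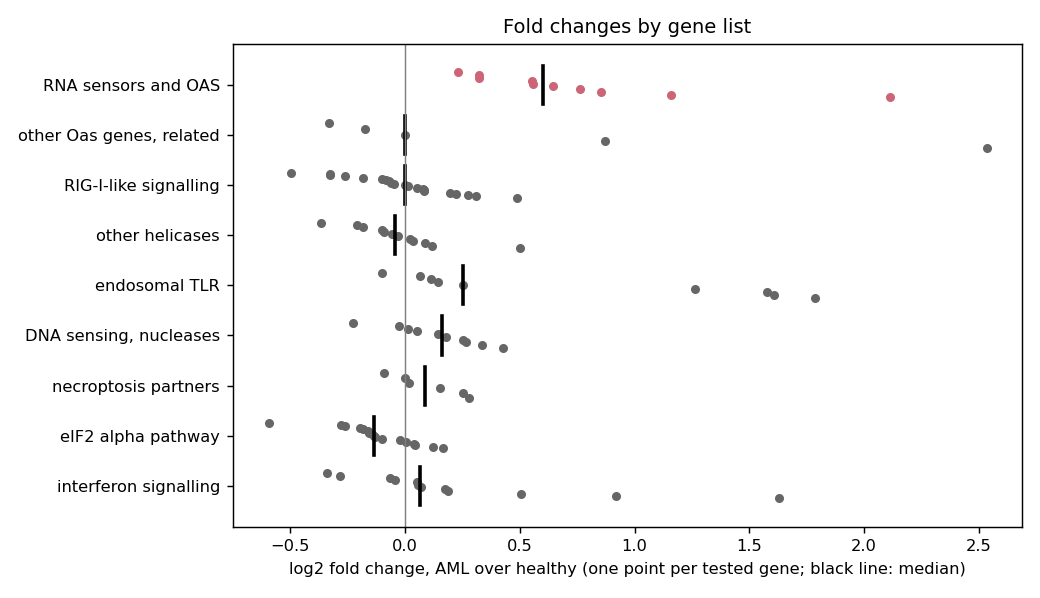
Log2 fold change, AML over healthy, of each tested gene in the list of 10 and in 8 lists of related genes, with the median of each list as a black line. The median is 0.60 for the RNA sensors and synthetases, all of which lie above 0, and between -0.14 and 0.25 for the other lists.

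Few reads came from the genes of type I and type III interferons themselves. Of 18 type I and type III interferon genes, 13 had 0 reads in every library, none passed the filter, and the highest count was 9 reads, for Ifnz in AML 3. Ifnb1 had 3 reads in AML 1 and 0 elsewhere. Of 12 receptor and signalling genes, 0 passed the adjusted threshold in edgeR and 2 were higher at an unadjusted p below 0.05, with a median of 0.06. The 2 were Irf9, with 0.51 ± 0.09, and Usp18, an interferon-induced brake on the receptor, with 0.92 ± 0.18. Stat2 had 0.19 ± 0.18 with overlapping groups. Ifnar1 and Ifnar2 had 0.05 ± 0.09 and 0.07 ± 0.06.

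Markers of other cells were measured beside these genes, because the libraries are bulk samples in which fewer cells of a type and less RNA per cell cannot be told apart. Genes of the labelled cell type were abundant, with Ncr1 at 1494 ± 50.7 and 1713 ± 137 CPM, Klrb1c, Tbx21 and Itga1 at 365 CPM at the lowest in any library, and Eomes and Itga2 at most 17.1 CPM. The 6 macrophage and Kupffer cell markers summed to 12.7 to 16.2 CPM in healthy and 42.8 to 117 CPM in AML libraries, and for 4 of the 6 the groups did not overlap. In these 4 the AML libraries lay above, as for 8.2% of all genes tested. The 4 monocyte markers summed to 254 to 749 CPM in healthy and 824 to 967 CPM in AML libraries. Lyz2 alone gave 459 CPM in healthy 1 and 35.0 and 33.1 CPM in the other healthy libraries. Most of the sum in healthy 2 and healthy 3 came from Ccr2, at 212 and 189 CPM. Lyz2 and Csf1r overlapped between groups. Ccr2 and Ly6c2 were higher in every AML library than in every healthy one, as for 8.2% of all genes tested. Of the 3 plasmacytoid dendritic cell markers, Siglech was at 0 reads in the healthy group and at 152, 42 and 124 reads in AML 1 to 3. Ccr9 was at 0.0201 to 0.203 CPM in healthy and 1.03 to 1.58 CPM in AML libraries. Bst2 was at 62.2 to 71.6 CPM in healthy and 79.6 to 98.4 CPM in AML libraries. It was thus abundant in healthy libraries, where Siglech and Ccr9 were absent or nearly so, and did not follow them there. For all 3 every AML library lay above every healthy one, as for 8.2% of all genes tested. The 3 neutrophil markers summed to 0.422 to 5.51 CPM in healthy and 2.01 to 73.8 CPM in AML libraries, highest in AML 1, with Ly6g at 0 throughout. The 4 conventional dendritic cell markers summed to 17.9 to 19.2 CPM in healthy and 21.5 to 23.5 CPM in AML libraries. Each of these 4 genes overlapped between groups, and Xcr1 and Zbtb46 made up most of the sums. The 3 T cell markers summed to 16.8 to 36.3 CPM in healthy and 14.6 to 58.6 CPM in AML libraries. The 3 B cell markers summed to at most 0.785 CPM, and the 3 hepatocyte markers to at most 3.78 CPM. Of the endothelial markers Stab2 was at most 0.498 CPM and Cdh5 at 0 in 4 libraries, while Pecam1, which lymphocytes also express, was at 90.9 to 125 CPM.

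Within the AML group the monocyte sum and the summed level of the 10 genes were both highest in AML 1 and lowest in AML 3, while the macrophage sum was lowest in AML 1 and highest in AML 3. Lyz2 alone was highest in AML 2, at 566 CPM. Within the healthy group the monocyte sum was highest in healthy 1 and the summed level of the 10 genes in healthy 3. With Lyz2 as a covariate all 10 fold changes stayed positive, with a median of 0.59. In this fit 5 members and 948 of all 12469 genes had an unadjusted p below 0.05, and edgeR adjusted p-values of the members were 0.646 to 0.880. Lyz2 was at 434 to 566 CPM in AML libraries, and only healthy 1 of the healthy libraries came near, at 459 CPM. The covariate thus differs from the group label mainly in healthy 1 and cannot separate the 2. The part of monocytes, macrophages, dendritic cells and neutrophils in the fold changes was not tested.

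**Figure D5:**
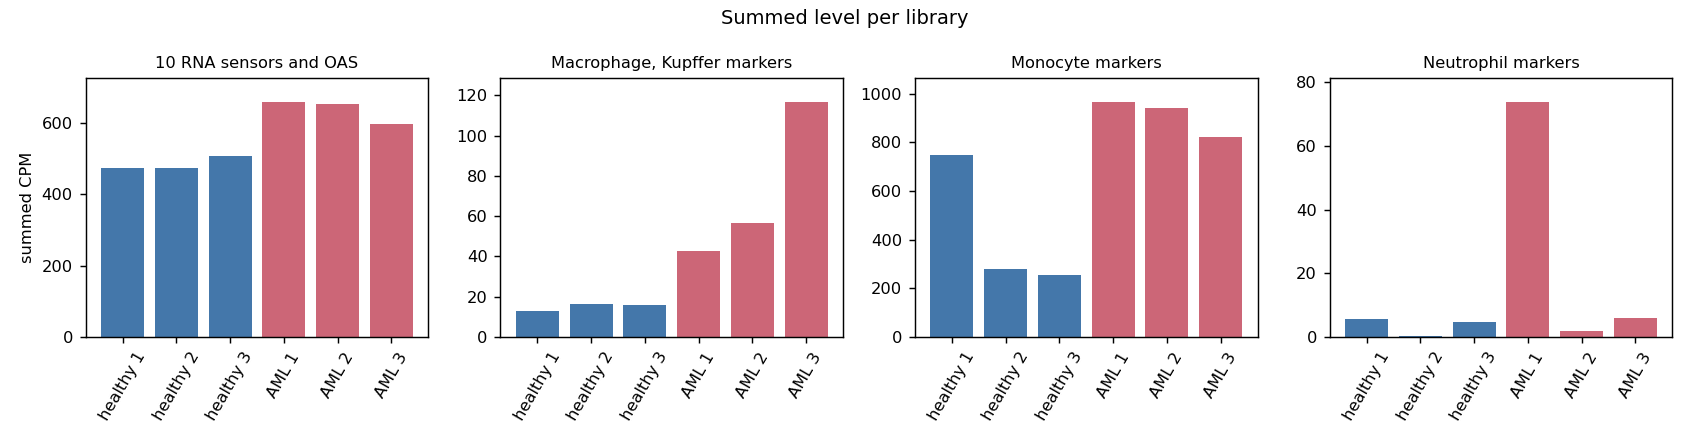
Summed level in CPM, per library, of the 10 RNA sensor and synthetase genes and of the markers of macrophages and Kupffer cells, of monocytes and of neutrophils (bars from 0, axes differ). The 10 genes sum to 472 to 507 CPM in healthy and 595 to 658 CPM in AML libraries, while the macrophage markers are highest in AML 3 and the monocyte and neutrophil markers in AML 1.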

How the data were processed

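The deposited table of raw read counts per gene held 6 libraries with totals of 45135093 to 51284691. Per the labels' protocols, cDNA was made from 2 ng of total RNA with a SMART-Seq kit and sequenced as single reads of 51 cycles without strand information, so Dhx58, Eif2ak2, Oas2 and Oasl1, which overlap annotated genes on the other strand, include any reads of those. The submitters' processing notes name STAR 2.6.0, HTSeq 0.6.0, edgeR 3.28.1 and the builds mm10 and hg19, without roles. Positions are those of the count table. All 10 members lie on the chromosome that RefSeq GRCm38.p6 gives, and 5 have the identical start, so positions were read as mm10.

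The second table is the authors' deposited comparison, with log2 fold changes, p-values and likelihood ratio scores. Its values per library, though named counts, equal RPKM of the deposited counts times 1.01 and were not used.

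Columns were matched to libraries by the description label. AML was compared with healthy by the quasi-likelihood test (edgeR 4.0.16, R 4.3.3), using TMM factors, filterByExpr at a minimum count of 10 and group as the only term, over 12469 genes with a Benjamini-Hochberg threshold of 0.05. CPM are on TMM-scaled totals. The standard error is the fold change divided by the root of F. On simulated counts for 12227 genes the test was checked and called 64.2% of genes changed by 1 log2 unit and 85.4% of those changed by 2. It called 6 of 12036 unchanged genes. Changes below 1 log2 unit, which most members had, were not simulated.

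Alternatives were 2 other sets of size factors, plain totals, 3 other filters, DESeq2 1.42.0, the likelihood ratio test, limma-voom (limma 3.58.1), robust dispersion, the replicate number as a block, Lyz2 as a covariate and libraries left out. The members and lists were chosen with earlier results of these data known. The rule for named genes took all members, fixed partner genes, and up to 3 genes of the smallest p per list. Tlr13, Tmem173, Oas1d, Ifnb1, Ifnz, Ifnar1, Ifnar2 and the eIF2 alpha kinases other than Eif2ak2 were named after their values were seen. Some genes are not reported here.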

Additional observations from a re-analysis of the deposited data

How the results depend on the processing

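All 10 members kept a positive fold change under each of the 19 alternatives, and their median log2 fold change ran from 0.56 to 0.69 around 0.60. The number of members at an unadjusted p below 0.05 ran from 5 to 9. Over all genes this number ran from 768 of 12719 tested without AML 3 to 2001 of 12555 without healthy 1 and AML 1. Members past the threshold numbered 0 in the main analysis, 4 by DESeq2, 4 by the likelihood ratio test and 2 without healthy 1 and AML 1. With each library left out in turn they ranged from 0 to 1, the single call being Dhx58 without AML 1. Over all genes the count was 0, against 1 with upper-quartile factors, 2 with plain totals, 2 without a filter, 149 by DESeq2, 100 by the likelihood ratio test and 444 without healthy 1 and AML 1. It ranged from 0 to 147 with each library left out. The cause of these differences was not tested.

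With the replicate block 0 members and 0 genes passed, as without it, with 9 members at an unadjusted p below 0.05 and a median log2 fold change of 0.60. Of all 12469 genes, 1462 had an unadjusted p below 0.05 with the block and 1102 without it. The deviations of equally numbered libraries correlated at 0.13, -0.05 and 0.16 over genes, and those of the other pairs at -0.21 to 0.08. AML 1 and AML 3 correlated best with the healthy library of their own number, and AML 2 with healthy 3. Whether equally numbered libraries share more than the number was not tested. Among the tested Oas genes Oas1g had the fewest reads over all libraries, at most 57 in one, so counting error weighs most on it.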
